A study of Homo sapiens with 4 samples.

Results

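MALAT1 and NEAT1 are long noncoding RNAs of the nucleus, and their levels were read in RNA precipitated with nuclear SRP9 and in the whole-cell RNA of the same cells. The 2 genes were found by their Ensembl IDs, ENSG00000251562 for MALAT1 and ENSG00000245532 for NEAT1, among the 60676 IDs listed in each library. Both IDs were present in all 4 libraries and both passed the filter on low counts, as did 41622 IDs in all. The cells were MiaPaCa, an established human pancreatic cancer cell line, electroporated with a plasmid for variant 1 or variant 2 of SRP9 carrying a nuclear localisation signal and a FLAG tag. After Geneticin selection, cells positive for the plasmid's green fluorescent reporter were sorted, so each variant was studied in 1 selected pool, and the labels give no removal of the cells' own SRP9. RNA from the immunoprecipitate (RIP variant 1 and RIP variant 2) was sequenced beside whole-cell RNA of the same experiments (input variant 1 and input variant 2), with 1 library per group. The study asked what SRP9 does in the nucleus. A library precipitated without tagged SRP9 was not analysed here, and neither were cells without a plasmid, so both groups of each comparison carry a construct.

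MALAT1 is a very abundant RNA that accumulates in nuclear speckles, bodies rich in splicing factors. Its mature end is made by RNase P rather than by polyadenylation, a cut that also releases a small tRNA-like RNA, mascRNA. NEAT1 is the scaffold of another nuclear body, the paraspeckle, and is made as a short polyadenylated form and a long form that share a start, of which the long one builds the body. SRP9 works as a dimer with SRP14 on the Alu domain of the signal recognition particle RNA, and the dimer also binds RNAs of Alu repeats.

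The genes are neighbours on chromosome 11. In the RefSeq annotation of GRCh38.p14 they are 52197 bases apart with 3 annotated genes between them, MALAT1 spanning 8779 bases and NEAT1 22743 bases. RefSeq lists 3 transcripts of MALAT1 and 2 of NEAT1. The antisense gene TALAM1 overlaps 7205 bases (82.1%) of MALAT1, and the 58-base mascRNA gene lies inside it. The microRNA gene MIR612 lies inside NEAT1, from base 21661 of the gene on. The deposited files hold 1 value per gene, so transcripts of a gene are not told apart. The strand setting of the counting was not given in the sources used here, so reads of MALAT1 and of TALAM1 cannot be told apart without it.

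The first 50 transcribed bases at both RefSeq starts of MALAT1 are shown to identify the RNA whose counts follow (GRCh38.p14, plus strand, 5′ to 3′, no base marked by a capital). The starts lie 1307 bases apart, and reads from either belong to the same gene value. The first covers chr11:65497738-65497787 and the second chr11:65499045-65499094.
MALAT1 start 1: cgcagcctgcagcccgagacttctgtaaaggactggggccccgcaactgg
MALAT1 start 2: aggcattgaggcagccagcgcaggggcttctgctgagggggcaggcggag

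The RIP libraries were far shallower than the inputs, with totals of 3921361 (variant 1) and 5211354 (variant 2), against 50454080 and 58815384 counts in the corresponding inputs, a 15.0-fold range. Of the listed IDs, 44658 and 51589 had any count in the RIP libraries (variants 1 and 2), and 28372 and 26720 in the inputs. The ratios of RIP over input depended on the scaling. TMM, the scaling used for the test, placed the median log2 ratio of RIP over input at -1.25 for variant 1 and -1.17 for variant 2 over 15450 well-counted IDs, those that reached 50 counts in each input. With library totals as the scale the same medians were -0.080 and -0.0080. These IDs were chosen by their counts in the inputs, the denominator of the ratio. Over all tested IDs the TMM medians were 3.07 with variant 1 and 3.25 with variant 2. The filter worked by fraction, so many IDs with little or no input entered through the RIP libraries alone. Their high ratios depend on the small prior count added before taking logs. Because of the scaling, values relative to the median of the well-counted IDs are given beside the folds.

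MALAT1 was lower in the RNA precipitated with SRP9 than in whole-cell RNA with both variants, and this was its direction under every scaling tried. The deposited count was 4080 in RIP variant 1 and only 2364 in RIP variant 2, against 221375 in input variant 1 and 268411 in input variant 2. Scaled to the library total (CPM, counts per 1000000), its RIP level was 1040 CPM for variant 1 (exact Poisson interval at 95%, 1009 to 1073) and 454 CPM for variant 2 (436 to 472). The inputs stood at 4388 CPM for variant 1 (4369 to 4406) and 4564 CPM for variant 2 (4546 to 4581). Both RIP libraries lay below both inputs, and the inputs were much closer to each other than the RIP libraries were. The share of all tested IDs whose fractions separate in this way was not computed. A lower level in RIP was common among IDs of like input level, described below. Their median log2 ratios on TMM scaling were -3.85 with variant 1 and -3.82 with variant 2. The Poisson intervals take in only the error of counting reads and leave out the spread between libraries. Amplified reads also do not each stand for a separate molecule.

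NEAT1, in contrast, took a larger share of the RIP libraries than of the inputs on library totals, and a lower scaled level in RIP with TMM. The deposited count was 1740.5 in RIP variant 1 and a similar 1678.5 in RIP variant 2, against 12588 in input variant 1 and 12632.5 in input variant 2. Its RIP level was 444 CPM for variant 1 (423 to 465) and 322 CPM for variant 2 (307 to 338), against input levels of 249 CPM (245 to 254) and 215 CPM (211 to 219). On library totals both RIP libraries thus lay above both inputs, although the gap between RIP variant 2 and input variant 1 was smaller than that between the RIP libraries. How many other IDs separate in this direction was not computed. A larger share in RIP was common on this scale. The median log2 ratio of RIP over input over all tested IDs was 4.09 with variant 1 and 4.38 with variant 2. These medians include the IDs that entered through RIP alone. Over the well-counted IDs the medians on this scale were -0.080 and -0.0080. For NEAT1 the log2 ratio was 0.83 with variant 1 and 0.58 with variant 2. With TMM scaling the order of NEAT1 turned, to 299 and 215 scaled CPM in the RIP libraries of variants 1 and 2, against 381 and 323 in the inputs. MALAT1 kept its order with TMM scaling, at 702 and 303 scaled CPM in the RIP libraries, against 6706 and 6868 in the inputs. The NEAT1 values end in 0.5 in 3 libraries, as arises when a read is divided between features, while those of MALAT1 are whole in all 4.

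**Figure D1:**
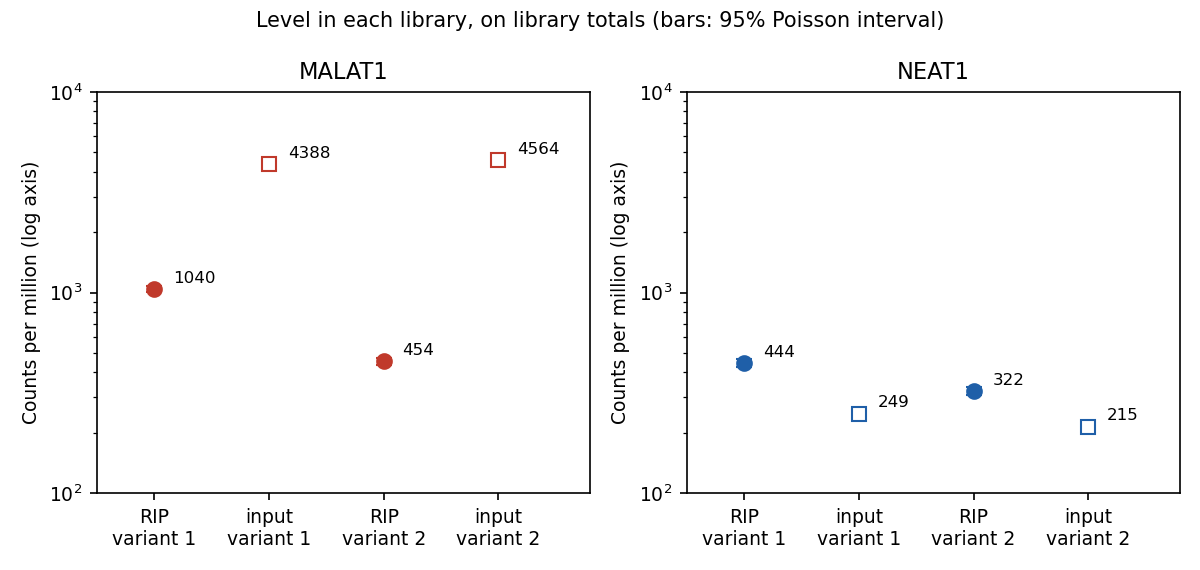
Level of MALAT1 (left) and NEAT1 (right) in each library, in CPM (counts per 1000000 of the library total) on a log axis. Filled circles are RIP libraries and open squares inputs, 1 library each, with 95% Poisson intervals that are mostly smaller than the symbols. MALAT1 is at 1040 and 454 in the RIP libraries and at 4388 and 4564 in the inputs, while NEAT1 is at 444 and 322 in the RIP libraries and at 249 and 215 in the inputs.

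The ranks by count, which need no scaling but are not corrected for length, showed the same contrast. MALAT1 was the ID with the 16th highest count in RIP variant 1 and the 40th in RIP variant 2, against the 11th in input variant 1 and the 10th in input variant 2. NEAT1 stood at rank 47 in RIP variant 1 and rank 67 in RIP variant 2, against rank 685 in input variant 1 and rank 818 in input variant 2. MALAT1 thus stayed among the most counted IDs in all 4 libraries, and NEAT1 ranked far higher in the RIP libraries than in the inputs. MALAT1 took 0.104% and 0.0454% of the RIP counts of variants 1 and 2, against 0.439% and 0.456% of the input counts.

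A test of RIP against input used edgeR's quasi-likelihood fit of all 4 libraries, in which the constructs stand as the 2 samples of each fraction. They are different constructs and not replicates, so the p-values take in no more than the spread among these 4 libraries. MALAT1 averaged 747 ± 415 CPM in RIP and 4476 ± 124 CPM in input (SD, n = 2 each). Its fitted log2 fold change of RIP over input was -3.76 (SE 0.42, adjusted p = 0.0015 by edgeR with Benjamini-Hochberg adjustment over 41622 IDs), and it was lower in both RIP libraries. NEAT1 averaged 383 ± 86.1 CPM in RIP and 232 ± 24.5 CPM in input (SD, n = 2 each). Its fitted log2 fold change was -0.45 (SE 0.25, edgeR adjusted p = 0.16), which did not pass the threshold of 0.05.

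These calls stood against many others, as 15.8% of all tested IDs were called lower in RIP and 49.5% higher. Among the 15450 well-counted IDs, 42.1% were called lower, and their median log2 fold change was -1.15. MALAT1 differed from that median by -2.61, with 5.84% of these IDs lower still, and NEAT1 by 0.69, with 63.7% lower. These standings hold only among IDs chosen by their input counts. The direction of NEAT1 depended on the scaling. On library totals its log2 fold change was 0.74 and was called higher (edgeR adjusted p = 0.030), while MALAT1 was still called lower at -2.56 (edgeR adjusted p = 0.0044). On that scale 24271 of the 41622 tested IDs were called higher and 3213 lower, so a higher call was common. With the 15450 well-counted IDs fitted alone NEAT1 had 0.66 (edgeR adjusted p = 0.072) and MALAT1 -2.64 (edgeR adjusted p = 0.0027).

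**Figure D2:**
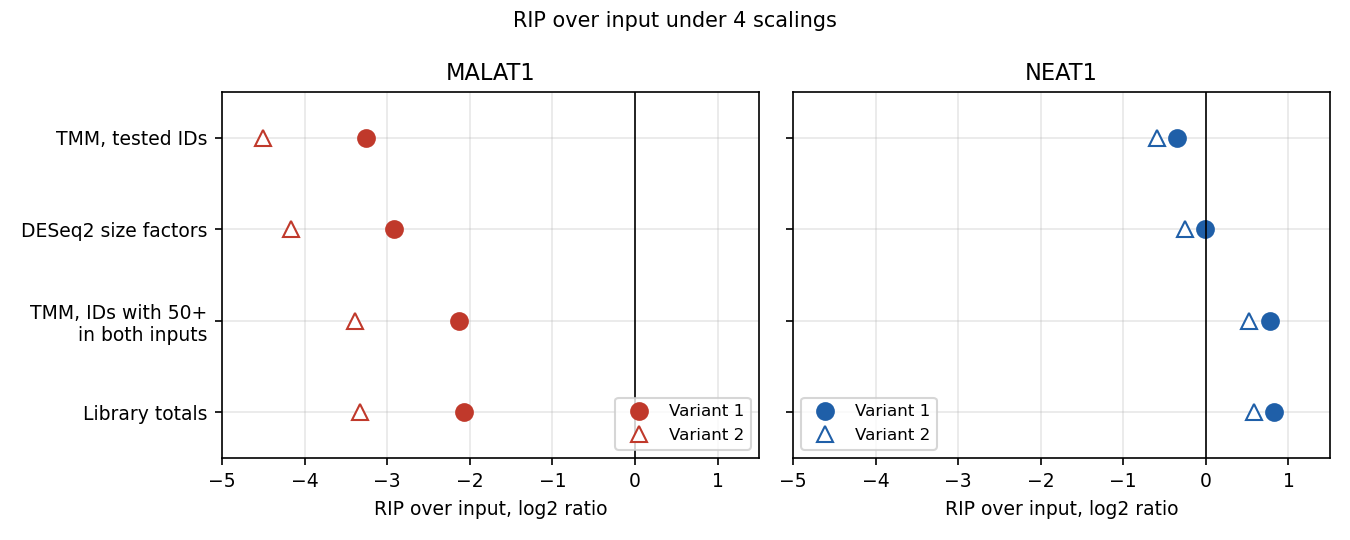
Log2 ratio of RIP over input of MALAT1 (left) and NEAT1 (right) under 4 scalings, for variant 1 (filled circles) and variant 2 (open triangles), 1 RIP and 1 input library each. All points of MALAT1 lie below -2, whereas NEAT1 lies below 0 with TMM over tested IDs and above 0.5 with library totals.

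Each RIP library was then set against the input of its variant, and with 1 library on each side no test was possible. On library totals MALAT1 was 4.22-fold lower in RIP than in input with variant 1 and 10.1-fold lower with variant 2. On TMM scaling these folds were 9.55 and 22.7. A ratio at least 2-fold lower on TMM scaling was also found for 23.1% of tested IDs with variant 1 and 21.2% with variant 2. Among the well-counted IDs, 15.9% had a lower ratio than MALAT1 with variant 1 and 2.87% with variant 2. On the log2 scale MALAT1 differed from their median by -2.01 with variant 1 and -3.33 with variant 2.

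The ratio of NEAT1 was less than 2-fold from 1 on either scale. On library totals NEAT1 was 1.78-fold higher in RIP than in input with variant 1 and 1.5-fold higher with variant 2. On TMM scaling its log2 ratio was -0.35 with variant 1 and -0.59 with variant 2, and neither value reached 2-fold. Relative to the median of the 15450 well-counted IDs it lay 0.90 above with variant 1 and 0.58 above with variant 2. Of these IDs, 66.4% and 61.4% had a lower ratio than NEAT1 with variants 1 and 2. NEAT1 lay below the TMM medians of all tested IDs, 3.07 and 3.25. These medians include IDs that passed the filter through RIP alone, so no standing of NEAT1 is read from them.

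Across the series the ratio of RIP over input was lower for IDs of higher input level, so each gene was also read beside the IDs of like input abundance. These were the IDs within 2-fold of the gene's own CPM in the input of the other variant, so that the input that chose them is not the one in the ratio. They were read as a description, after values had been seen, and without a test. For MALAT1 there were 26 such IDs for variant 1 and 27 for variant 2. Its log2 ratio was -3.26 with variant 1, beside a median of -3.85 (quartiles -4.66 and -2.94), and -4.50 with variant 2, beside -3.82 (quartiles -4.80 and -2.04). It lay above 17 of 26 IDs with variant 1 and above 9 of 27 with variant 2, so its ratio lay between the quartiles of IDs as abundant as itself with both variants.

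NEAT1 stood apart from IDs of its own input level. With variant 1 its log2 ratio of -0.35 exceeded that of 1659 of 1666 such IDs (99.6%), whose median was -2.83 (quartiles -3.51 and -2.23). With variant 2 its ratio of -0.59 exceeded that of 1389 of 1396 (99.5%), whose median was -2.99 (quartiles -3.51 and -2.43). NEAT1 lay 2.48 and 2.40 above these medians with variants 1 and 2, a difference that no scaling of the libraries changes, apart from the small prior count. Median levels of these IDs were 58.0 CPM (RIP variant 1) and 59.1 CPM (RIP variant 2), against input medians of 169 and 193 CPM. NEAT1 had 444 and 322 CPM in the RIP libraries, as given above. The IDs were matched on input level and not on gene length, and NEAT1 spans 22743 bases. Whether length bears on its standing was not tested.

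**Figure D3:**
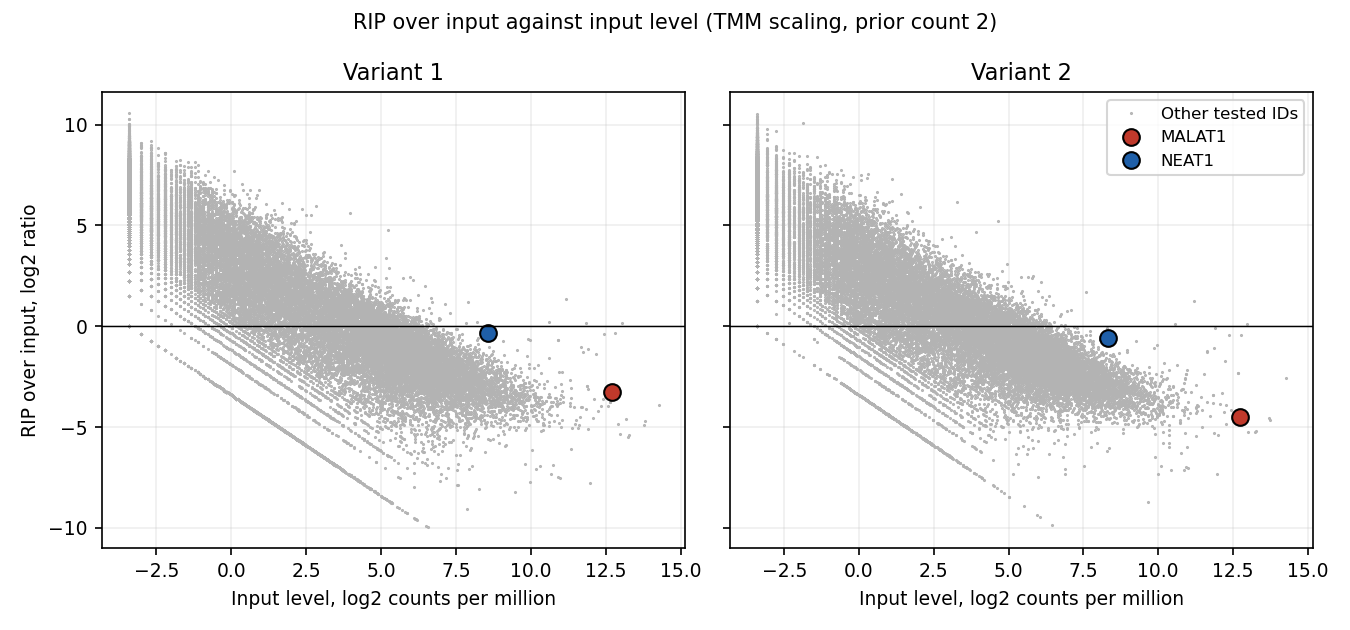
Log2 ratio of RIP over input against the input level in log2 CPM, for variant 1 (left) and variant 2 (right), on TMM scaling. Each grey point is 1 of the 41622 tested IDs, and the input enters both axes. NEAT1 (blue) lies at -0.35 and -0.59, above nearly all IDs at its input level, and MALAT1 (red) at -3.26 and -4.50, within the spread of the few IDs as abundant as itself.

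The counts of both genes within a library give a ratio that no scaling alters. For each 100 MALAT1 counts, RIP variant 1 held 42.6 NEAT1 counts (exact binomial interval at 95%, 40.3 to 45.1), and RIP variant 2 held 71.0 (66.6 to 75.6). The inputs held 5.69 (5.58 to 5.79) for variant 1 and 4.71 (4.62 to 4.79) for variant 2. NEAT1 relative to MALAT1 was thus 7.50-fold higher in RIP than in input with variant 1 (7.07 to 7.96) and 15.1-fold higher with variant 2 (14.1 to 16.1), with intervals for counting error only.

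The RIP and input libraries did not overlap in this ratio. Its log2 value averaged -0.86 ± 0.52 in RIP and -4.27 ± 0.19 in input (SD, n = 2 each), a 10.6-fold difference. An exact two-sided permutation test gave p = 0.33, the smallest value that 2 libraries against 2 allow. Any complete separation of 2 libraries from 2 gives that value, so the test cannot decide. IDs of like input level to MALAT1 also had a lower median log2 ratio of RIP over input than those like NEAT1. These medians were -3.85 against -2.83 with variant 1, and -3.82 against -2.99 with variant 2. How often other pairs of IDs at such levels shift as far, or separate the fractions at all, was not computed. Per kilobase of the RefSeq gene span, MALAT1 had 119 and 51.7 CPM in the RIP libraries of variants 1 and 2, against 500 and 520 CPM in the inputs. NEAT1 had 19.5 and 14.2 CPM per kilobase in the RIP libraries, against 10.97 and 9.44 in the inputs. MALAT1 was therefore 6.07 and 3.65 times NEAT1 per kilobase in the RIP libraries of variants 1 and 2, against 45.6 and 55.0 times in the inputs. The full span is used for NEAT1, so its level per kilobase is understated for any part of the counts that comes from the short form.

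**Figure D4:**
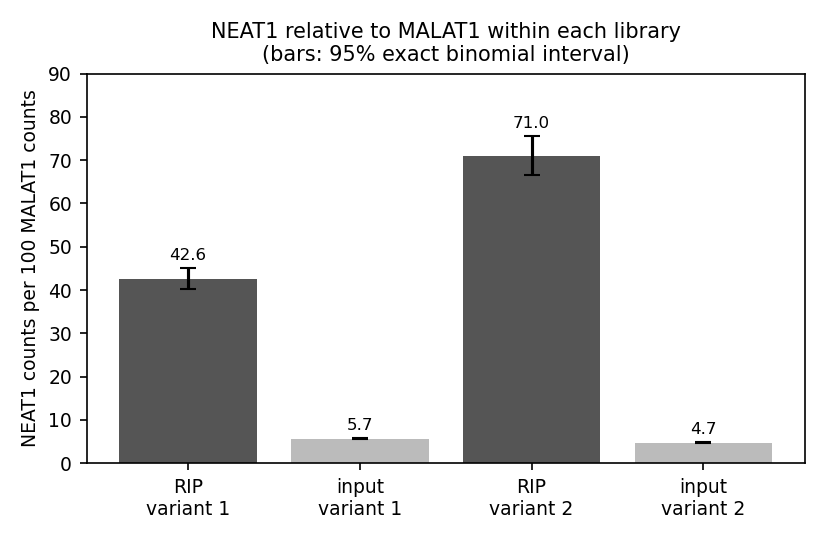
NEAT1 counts per 100 MALAT1 counts in each library (bars, from 0), with 95% exact binomial intervals. The RIP libraries are at 42.6 (variant 1) and 71.0 (variant 2), and both inputs are below 6.

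The variants were compared with each other at the resolution of single libraries. RIP variant 1 held 2.29 times the MALAT1 level of RIP variant 2 on library totals, and 2.32 times on TMM scaling. A 2-fold excess in RIP variant 1 was found for 18.7% of the tested IDs. In the inputs the log2 ratio of variant 1 over variant 2 was -0.03 for MALAT1, while 24.9% of tested IDs differed by 2-fold or more in either direction. The well-counted IDs had a median of 0.0072 in this comparison, with 45.0% lower than MALAT1 and 55.0% higher. Taking the inputs into account, the RIP over input ratio of MALAT1 was 2.37-fold higher with variant 1 than with variant 2 on TMM scaling (log2 difference 1.25, 1.17 to 1.32 by counting error). A difference of at least 2-fold in that direction was found for 23.1% of tested IDs. Among the 15450 well-counted IDs, 10.9% had a larger difference than MALAT1 in that direction, and 9.15% a larger ratio between the RIP libraries.

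NEAT1 differed less than MALAT1 between the RIP libraries of the variants, and more than MALAT1 between the inputs. Its log2 ratio of variant 1 over variant 2 was 0.48 (0.38 to 0.57 by counting error) between the RIP libraries and 0.24 (0.20 to 0.27) between the inputs, on TMM scaling. Taking the inputs into account left a log2 difference of 0.24 (0.14 to 0.34). With 1 library per group, none of these differences between variants could be checked on a replicate.

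The IDs most like each gene were sought among the 6578 tested IDs that reached 100 counts in every library, by the Euclidean distance of log2 levels centred on each ID's mean over the 4 libraries. For MALAT1 they were ENSG00000124882, ENSG00000181104 and ENSG00000116871, at distances of 0.11, 0.11 and 0.12. ENSG00000124882, the nearest, had 51.3 and 20.9 CPM in the RIP libraries of variants 1 and 2, against 226 and 222 CPM in the inputs. For NEAT1 they were ENSG00000116704, ENSG00000116954 and ENSG00000117461, at distances of 0.054, 0.074 and 0.078. ENSG00000116704 had 46.9 and 34.3 CPM in the RIP libraries, against 26.3 and 23.7 CPM in the inputs. The nearest IDs of either gene were thus less abundant than the gene itself. The distance between MALAT1 and NEAT1 was 3.46, and 61.0% of the eligible IDs were closer to MALAT1 than NEAT1 was. Seen from NEAT1, 6247 of the 6578 were closer than MALAT1.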

How the data were processed

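Each library has 1 deposited file of raw values, which are estimated counts per Ensembl ID that the authors had not normalized, judging by the column names and unequal totals. Per the submitters' processing notes, the tools were HISAT2 2.1.0 and featureCounts of Subread 2.0.0, with the build GRCh38.p13. Between 13.9% and 18.0% of the values hold a fraction of a read. Strand setting, annotation release and handling of multi-mapping reads were not given in the sources used here.

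Counts were rounded and RIP was compared with input by the edgeR quasi-likelihood test (edgeR 4.0.16, limma 3.58.1, R 4.3.3), with TMM scaling, filterByExpr by fraction (minimum count 10) and 2 residual degrees of freedom. The SE is the one implied by the quasi-F statistic. The test was tested on simulated data. In that simulation few IDs changed between the fractions, equally in both directions, unlike in these data, so it does not bear on the choice of scaling. Single-library ratios are differences of log2 CPM with a prior count of 2. CPM without further words are on library totals, where 3 counts, the limit that a count of 0 allows, equal 0.765 CPM (RIP variant 1), 0.576 CPM (RIP variant 2), 0.0595 CPM (input variant 1) and 0.0510 CPM (input variant 2). Alternatives were other scalings, filters and tests (DESeq2 1.42.0, limma-voom), halved counts, the construct as a block, and leaving out a library.

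The labels tie each RIP library to an input of the same experiment. The difference between the RIP libraries and that between the inputs had a correlation of -0.0045 over the tested IDs, so no common deviation was seen. With the construct as replicate block (1 residual degree of freedom) neither gene's call changed.

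The reference table (59792 genes) pairs 0 genes with an Ensembl ID. The names of MALAT1 and NEAT1 come with the IDs that define them, and the other genes of speckles and paraspeckles, RNA-processing factors, neighbouring genes, the transfected gene and cell type markers could not be matched and were not computed. The cell type and the library labels were not checked against markers for the same reason. The genes and lists were chosen with earlier results of these data known. Sequences are from RefSeq tables, matched by symbol, which held MALAT1.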

Additional observations from a re-analysis of the deposited data

How the results depend on the processing

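MALAT1 was lower in RIP than in input and called in all 13 alternatives of the test over both constructs, with log2 fold changes between -4.51 and -2.56 and adjusted p up to 0.0050. NEAT1 was called in 1 of 13, and its log2 fold change ranged from -0.85 to 0.74. Its direction was reversed with library totals (0.74), with a minimum of 50 counts in 2 libraries (0.065) and with only IDs that reach 50 counts in each input (0.66), where the scaling changed. With the construct as replicate block, MALAT1 had -3.88 (edgeR adjusted p = 0.0013) and NEAT1 -0.47 (edgeR adjusted p = 0.21). Without 1 library MALAT1 ranged from -4.51 to -3.26 and NEAT1 from -0.85 to -0.22, where the single library left in a fraction is taken to vary as the other fraction does.

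Over all IDs, the 20595 higher calls became 8289 with the replicate block, 8195 with a minimum of 50 counts in 2 libraries and 3421 for IDs that reach 50 counts in each input. They ranged from 938 (without RIP variant 1) to 18394 without 1 library, with 1082 without RIP variant 2. The 6583 lower calls became 3213 with library totals and 3658 for IDs that reach 50 counts in each input. Filters leave fewer IDs to test, and apart from that the cause was not tested.

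The single-library log2 ratios of RIP over input moved with the scaling. For MALAT1 and variant 1 they were -2.91 with DESeq2 size factors, -2.08 with library totals and -2.13 with TMM over IDs that reach 50 counts in each input. For MALAT1 and variant 2 the same settings gave -4.17, -3.33 and -3.39. For NEAT1 they gave -0.0077, 0.83 and 0.77 with variant 1, and -0.26, 0.58 and 0.53 with variant 2. MALAT1 in the inputs moved to -0.0038 with DESeq2 size factors and -0.057 with library totals. The share of IDs of like input level below NEAT1 with variant 2 was 99.9% within 1.5-fold (chosen after seeing the data), and it stayed above 99% for both variants with either other choice of IDs. Each group is 1 library, so the spread between replicate libraries is not known for any comparison between variants.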

Other observations

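Few IDs of like input level had a larger ratio of RIP over input than NEAT1, 7 with each variant, and 3 of them were the same IDs. These were named after their values were seen, and the reference table gives them no gene name. ENSG00000280441 had 819 and 942 CPM in the RIP libraries of variants 1 and 2, against 155 and 128 CPM in the inputs. ENSG00000198840 had 509 and 434 CPM in the RIP libraries, against 193 and 206 CPM in the inputs. ENSG00000090857 had 375 and 271 CPM in the RIP libraries, against 150.0 and 141 CPM in the inputs. For MALAT1, 9 IDs of like input level had a larger ratio with variant 1 and 18 with variant 2, and all 9 were among the 18.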
